A study of Homo sapiens with 11 samples.

Results

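The mitochondrially encoded RNAs are the transcripts of the circular genome inside mitochondria. Members were all genes whose symbol begins with MT-, which gave 37 of the 58699 genes in the table: 13 mRNAs, 2 ribosomal RNAs (rRNAs) and 22 transfer RNAs (tRNAs). By the annotation, 28 of them are heavy-strand genes (12 mRNAs, both rRNAs and 14 tRNAs) and 9 are light-strand genes (MT-ND6 and 8 tRNAs). The RNA came from the established colorectal cancer line HCT116. Its cells carried an siRNA against luciferase, a control with no target in human cells (siLuc), or an siRNA against Staufen1 (siStau1), which binds RNA duplexes. Each was given the solvent DMSO or decitabine (DAC), a nucleoside that blocks DNA methyltransferases, at 500 nM for 5 days. Total RNA was sequenced in 2 libraries of each of these 4 groups. The authors deposited 1 value per gene and group, in FPKM (fragments scaled by transcript length and library size), so values below are group values with no spread of their own. The groups are a transient knockdown in a single cell line. The labels do not say that the libraries of a group came from separate cultures. The authors' p-values therefore rest on these libraries alone, and the differences between libraries of a group may be technical.

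Both strands of mitochondrial DNA are transcribed from start to end into long precursor RNAs, from which the tRNAs are cut out like punctuation, releasing the rRNAs and mRNAs between them. The heavy-strand precursor holds nearly all mRNAs and both rRNAs, while most of the light-strand precursor is antisense to them and is normally degraded by the helicase SUPV3L1 and the ribonuclease PNPT1. Where both precursors persist they can pair into double-stranded RNA. The mRNAs encode core subunits of respiratory complexes I, III, IV and V, whose other subunits come from nuclear genes.

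The sequences show why the strands can be told apart by composition, and where neighbouring genes share bases. The first 60 bases of the light-strand mRNA MT-ND6 and of its heavy-strand neighbours on either side, MT-CYB and MT-ND5, are given with each G in capitals (RNA sense, written as DNA, from GENCODE 29 transcripts on GRCh38).
MT-ND6, chrM:14614-14673, minus strand: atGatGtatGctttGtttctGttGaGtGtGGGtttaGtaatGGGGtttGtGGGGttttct
MT-CYB, chrM:14747-14806, plus strand: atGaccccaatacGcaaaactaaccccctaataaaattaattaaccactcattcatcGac
MT-ND5, chrM:12337-12396, plus strand: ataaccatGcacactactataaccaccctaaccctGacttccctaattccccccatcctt
G fills 21 of these 60 bases in MT-ND6, 3 in MT-CYB and 2 in MT-ND5. Over the whole transcripts, MT-ND6 is 35.6% G and 7.05% C. The 12 heavy-strand mRNAs are 6.28 to 16.2% G and 29.5 to 36.0% C. The tRNAs follow the same split, with 23.5 to 36.1% G in the 8 light-strand and 10.3 to 19.1% G in the 14 heavy-strand tRNAs.

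MT-ATP8 and MT-ND4L overlap the mRNA that follows them, with which each is carried on 1 bicistronic molecule, so reads from the shared bases cannot be assigned to either reading frame. The last bases of both are shown with the shared ones in capitals.
MT-ATP8 end, 46 bases shared with MT-ATP6, chrM:8507-8572, plus strand: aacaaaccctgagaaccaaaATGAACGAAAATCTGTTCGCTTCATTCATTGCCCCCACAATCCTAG
MT-ND4L end, 7 bases shared with MT-ND4, chrM:10740-10766, plus strand: cataacctaaacctactccaATGCTAA
The pair of tRNAs MT-TI (isoleucine) and MT-TQ (glutamine) shows the 2 strands meeting, since their genes lie on opposite strands and share 3 positions, in capitals.
MT-TI, chrM:4263-4331, plus strand: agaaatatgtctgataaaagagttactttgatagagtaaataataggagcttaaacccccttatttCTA
MT-TQ, chrM:4329-4400, minus strand: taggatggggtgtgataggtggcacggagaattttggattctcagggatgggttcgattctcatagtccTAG

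Across all genes, 13350 to 14342 per group stood at 1 FPKM or more. The epithelial markers EPCAM, KRT8, KRT18, KRT19 and CDH1 were present in every group, CDH1 lowest at 14.3 to 26.5 FPKM, and PTPRC, PECAM1, ALB and HBB, markers of other cell types, stayed under 1 FPKM. Some markers moved with decitabine by the calls of the authors' deposited table. EPCAM fell from 259 to 117 FPKM in siLuc cells (q = 0.0157), and was at 338 and 179 in siStau1 cells, not called. KRT19 rose in both (537 to 1419 FPKM in siLuc, 449 to 1041 in siStau1 cells). KRT18 was called higher in siStau1 cells (509 to 2415 FPKM). In siLuc cells KRT18 stood at 681 and 3469 FPKM, not called (q = 0.0773 in the authors' deposited table). KRT8 was higher with DAC but not called in both, at 1103 and 3159 FPKM in siLuc and 834 and 2268 in siStau1 cells. PECAM1 was listed at 0 and 0.633 FPKM in siLuc cells and PTPRC at 0 and 0.820 in siStau1 cells, both called higher in the authors' deposited table. COL1A1, a fibroblast collagen, was at 1.59 FPKM with DMSO and 8.60 with DAC in siLuc cells, and at 0.826 and 5.65 in siStau1 cells, where it was called (q = 0.0201 in the authors' deposited table). The part of these markers in the results below was not tested. The targeted gene STAU1 stood at 35.5, 33.7, 29.98 and 27.1 FPKM in the same order. Its log2 ratio of siStau1 over siLuc was -0.24 in DMSO and -0.31 in DAC, with q = 0.767 and q = 0.685 in the authors' deposited table, so the knockdown was not called at the level of this RNA. The 3 highest genes took 31.1% of the summed FPKM with DMSO and 41.7% with DAC in siLuc cells, and 26.6 and 41.1% in siStau1 cells.

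The rRNAs form the core of the mitochondrial ribosome. MT-RNR1, of the small subunit, stood at 52.7 FPKM with DMSO and 203 with DAC in siLuc cells, and at 70.1 and 143 in siStau1 cells. Series of 4 values below keep that order. MT-RNR2, of the large subunit, stood at 279.7, 1146, 309 and 828 FPKM. Libraries were depleted of rRNA with Ribo-zero Gold per the labels' protocols, so these are levels left after depletion and not the cells' rRNA content. The ratio of MT-RNR2 to MT-RNR1 was 5.31, 5.66, 4.41 and 5.78. For both rRNAs the DAC groups were above the DMSO groups, with siLuc DAC highest.

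The mRNAs of complex I, which takes electrons from NADH, spanned a wide range of levels. MT-ND1, a membrane subunit, stood at 34.0 FPKM with DMSO and 267 with DAC in siLuc cells, and at 42.4 and 139 in siStau1 cells. MT-ND2 stood at 21.7, 139, 26.4 and 74.7 FPKM, and MT-ND5, a proton-pumping subunit like MT-ND2 and MT-ND4, at 25.1, 132, 32.7 and 77.1 FPKM. These were the 3 lowest heavy-strand mRNAs in siLuc DMSO, and for each the groups ranked, from low to high, siLuc DMSO, siStau1 DMSO, siStau1 DAC, siLuc DAC. MT-ND4 ranked the groups alike, at 57.3, 298, 61.7 and 166 FPKM. MT-ND4L did so too, at 102, 539, 150.2 and 297 FPKM. MT-ND3, the small membrane subunit with a loop that takes part in the active-to-deactive switch of the complex, was the exception among them, at 1072, 1714, 609.7 and 1286 FPKM, with siStau1 DMSO lowest.

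MT-CYB, cytochrome b of complex III, stood at 64.8, 284, 74.6 and 178 FPKM. The mRNAs of the mitochondrially encoded subunits of cytochrome c oxidase, complex IV, were the most abundant members together with MT-ND3. MT-CO1 stood at 725, 2039, 1035 and 1448 FPKM. MT-CO2 stood at 1105, 3274, 1394 and 2166 FPKM, and MT-CO3 at 1093, 3212, 1675 and 2302 FPKM. The complex V (ATP synthase) subunits MT-ATP8 and MT-ATP6, whose ends overlap as printed above, stood at 94.3, 210.3, 93.6 and 124 FPKM and at 88.7, 310.0, 118 and 190.3 FPKM. All 12 heavy-strand mRNAs were highest in siLuc DAC, and 10 of 12 were lowest in siLuc DMSO, with MT-ND3 and MT-ATP8 lowest in siStau1 DMSO.

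MT-ND6 (ENSG00000198695.2, chrM:14149-14673, minus strand) encodes a complex I membrane subunit and is the only mRNA of the light strand. It stood at 46.7 FPKM with DMSO and 68.4 with DAC in siLuc cells, and at 16.7 and 54.4 in siStau1 cells. The siStau1 DMSO value is the low one of the 4. In siLuc DMSO, 9 of the 12 heavy-strand mRNAs stood above MT-ND6, and in each of the other 3 groups all 12 did. As a share of the median heavy-strand mRNA, MT-ND6 came to 51.0% with DMSO and 22.5% with DAC in siLuc cells, and to 15.7 and 29.6% in siStau1 cells. Whether counting used the strand of reads is not given in the sources used here. If it did not, reads of the heavy-strand precursor across MT-ND6, and of the light-strand precursor across the heavy-strand genes, cannot be told apart from the mRNAs.

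**Figure D1:**
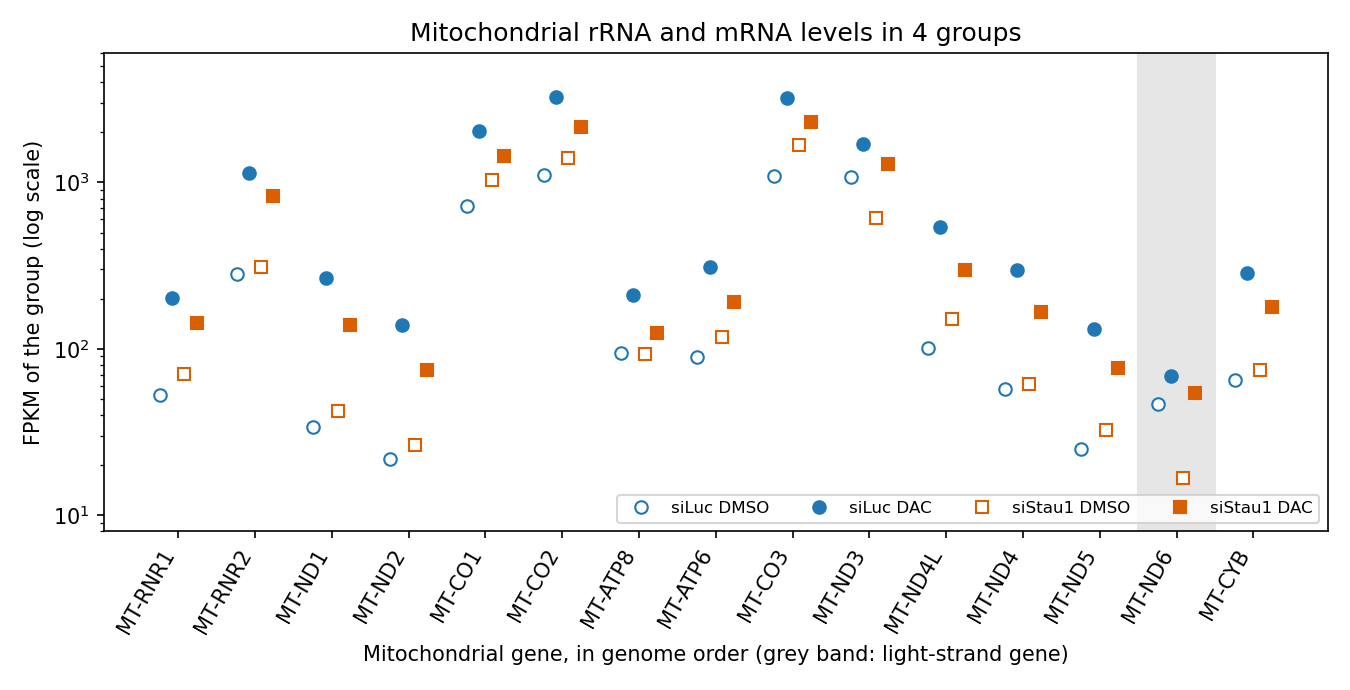
FPKM of each mitochondrial rRNA and mRNA on a log axis, in genome order, 1 point per group (circles siLuc, squares siStau1, open DMSO, filled DAC), with no error bars because each group has 1 deposited value. Filled circles (siLuc DAC) are the highest point of all 15 genes, and the open square (siStau1 DMSO) is the lowest for MT-ATP8, MT-ND3 and, in the grey band, the light-strand gene MT-ND6.

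Summed over the 12 heavy-strand mRNAs, FPKM came to 4483 with DMSO and 12418 with DAC in siLuc cells, and to 5313 and 8446 in siStau1 cells. Mitochondrial mRNAs made up 0.759, 2.08, 0.944 and 1.56% of the summed FPKM of protein-coding genes. The highest heavy-strand mRNA was 51.0, 24.9, 63.5 and 30.8 times the lowest, so the spread among these mRNAs was narrower in both DAC groups. FPKM is a share of a library, and more mitochondrial RNA per cell, more mitochondrial genomes per cell and less of other RNA cannot be told apart from it.

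The 22 tRNAs, which carry amino acids to the mitochondrial ribosome, were all listed at 0 in every group and were not tested by the authors. They are 59 to 75 bases long. None of the 3046 genes whose longest transcript is 100 bases or shorter was listed above 0 in any group, and the shortest gene above 0 had 102 bases. Between 100 and 150 bases, 239 of 3561 genes (6.71%) were above 0. The zeros of MT-TI, MT-TQ and the other tRNAs are therefore shared with every annotated gene of their length, and no strand comparison of tRNAs was possible. The remaining 15 members were tested in every comparison.

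Decitabine in siLuc cells raised most mitochondrial RNAs. In the authors' deposited table, 10 of the 15 members were called higher at q under 0.05 (8 heavy-strand mRNAs and both rRNAs) and none lower, where 13.5% of all 17504 tested genes were called, 8.71% higher and 4.78% lower. The log2 ratio of group FPKM, with a pseudocount of 0.1, had a median of 1.97 over the 12 heavy-strand mRNAs, a 3.91-fold ratio, against 0.23 over all tested genes. An error is given beside single genes as the log2 ratio divided by the authors' test score, which in Cuffdiff is a log ratio over its error. The p-values, q-values and calls cannot be read off these errors. MT-ND3, for example, had a score of 1.50 in siLuc cells but p = 0.032 in the authors' Cuffdiff test. The median implied error was 0.51 over the 15 members and 1.00 over all tested genes. Shares called therefore set the members beside genes of larger median error, here and in the other comparisons.

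MT-ND1 showed the largest ratio of the members, 2.97 (implied error 0.48), with q = 0.00162 in the authors' deposited table, the smallest q it holds. MT-ND2 rose by 2.67 (0.51), MT-ND5 by 2.38 (0.47), MT-ND4 by 2.38 (0.51) and MT-CYB by 2.13 (0.45), all with that q in the authors' deposited table. The complex IV mRNAs rose too, MT-CO2 by 1.57 (0.48), MT-CO3 by 1.56 (0.51) and MT-CO1 by 1.49 (0.52), the last 2 with q = 0.00415 and q = 0.00632 in the authors' deposited table. These 3 ratios were lower than those of MT-ND1, MT-ND2, MT-ND4, MT-ND5 and MT-CYB, a difference that was not tested. MT-RNR2 rose by 2.03 (0.47) and MT-RNR1 by 1.94 (0.47), both close to the heavy-strand median.

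The remaining 5 members were not called in siLuc cells. MT-ND4L had a log2 ratio of 2.41 but an implied error of 1.29 and q = 0.132 in the authors' deposited table. MT-ATP6 had 1.80 with an error of 1.91, and MT-ATP8 had 1.16 with an error of 5.95. These 3 errors were the largest of the 15, while MT-ND4, which shares the 7 printed bases with MT-ND4L, had an error of 0.51. MT-ND3 had 0.68 (0.45) and q = 0.210 in the authors' deposited table, from a level in DMSO, 1072 FPKM, close to those of MT-CO2 and MT-CO3. MT-ND6 had 0.55 (0.57) and q = 0.526 there, the smallest ratio of all 15.

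In siStau1 cells decitabine raised 9 of 15 members and lowered none by the calls of the authors' deposited table, where 7.46% of 16979 tested genes were called, 4.56% higher and 2.89% lower. The median log2 ratio of the heavy-strand mRNAs was 1.03, a 2.04-fold ratio, against 0.11 over all tested genes. MT-ND1 rose by 1.71 (0.48), MT-ND2 by 1.50 (0.51), MT-ND4 by 1.42 (0.50), MT-RNR2 by 1.42 (0.45) and MT-CYB by 1.25 (0.45). MT-ND5 rose by 1.23 (0.46) and MT-RNR1 by 1.03 (0.46), with q = 0.00825 and q = 0.0332 in the authors' deposited table. The 2 other called genes were not called in siLuc cells: MT-ND6 rose by 1.70 (0.70), q = 0.0343, and MT-ND3 by 1.08 (0.44), q = 0.0134, in the authors' deposited table. Both start from the siStau1 DMSO group, where each had its lowest value, 16.7 and 609.7 FPKM. At q under 0.01 the members called were 6, where 3.93% of tested genes were called, and MT-ND6, MT-ND3 and MT-RNR1 were lost.

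None of the complex IV mRNAs was called in siStau1 cells. MT-CO2 had a log2 ratio of 0.64 (0.46), MT-CO1 0.48 (0.51) and MT-CO3 0.46 (0.50), with q of 0.286, 0.530 and 0.558 in the authors' deposited table. MT-ND4L had 0.98 (1.00), MT-ATP6 0.69 (1.98) and MT-ATP8 0.41 (6.66). By complex, the median log2 ratio of the 7 complex I mRNAs was 2.38 in siLuc and 1.42 in siStau1 cells, and that of the 3 complex IV mRNAs 1.56 and 0.48.

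**Figure D2:**
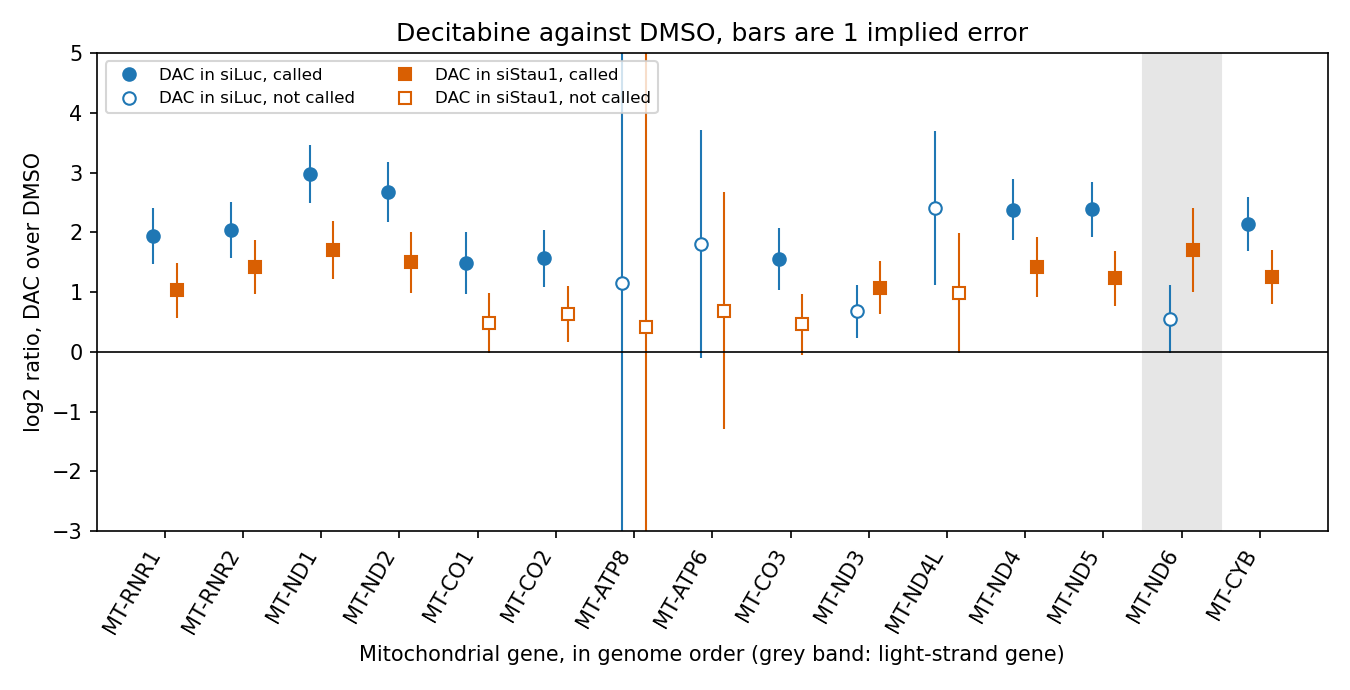
Log2 ratio of FPKM, DAC over DMSO, for each mitochondrial rRNA and mRNA in genome order, in siLuc (circles) and siStau1 (squares) cells, where bars are 1 implied error either way and filled points were called at q under 0.05. The circle is above the square for every gene except MT-ND3 and MT-ND6 (grey band), and the bars of MT-ATP8, 5.95 and 6.66, run past the axis.

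Both decitabine ratios depend on the scaling of the groups. The summed FPKM over all genes was 1129080 with DMSO and 1793610 with DAC in siLuc cells, and 967545 and 1491060 in siStau1 cells. With FPKM rescaled to that sum, which moved the median gene of at least 1 FPKM by -0.66 in siLuc and by -0.62 in siStau1 cells, the heavy-strand median was 1.30 and 0.41. On that scale 12 of 12 heavy-strand mRNAs were still higher with DAC in siLuc cells and 9 of 12 in siStau1 cells, and MT-ND6 in siLuc cells turned to -0.11. Rescaling to the sum over protein-coding genes gave 1.96 and 1.08.

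The decitabine ratio of nuclear genes rose with their transcript GC content, a correlation across genes, which are not independent replicates. Across nuclear protein-coding genes the Spearman correlation of the log2 ratio with GC was 0.661 in siLuc and 0.626 in siStau1 cells, and the median ratio ran from -0.95 in the lowest to 1.20 in the highest of 20 GC bins in siLuc cells. Heavy-strand mRNAs have 39.6 to 47.7% GC and MT-ND6 has 42.7%. Relative to nuclear genes of the same GC bin, the heavy-strand median was 2.21 in siLuc and 1.33 in siStau1 cells, above the uncentred values. For the knockdown the correlation was -0.487 with DMSO and -0.717 with DAC, and the centred heavy-strand median 0.34 and -0.86.

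The knockdown alone gave no called member. With DMSO, the authors' deposited table (a Cuffdiff test) called 0 of 15 members at q under 0.05 and 2 of 15 at an unadjusted p under 0.05, where 0.799% of 15893 tested genes were called, 0.333% higher and 0.466% lower, and 4.3% had an unadjusted p under 0.05. The heavy-strand median log2 ratio of siStau1 over siLuc was 0.33, against -0.02 over all tested genes, with 10 of 12 above 0 and the highest at 0.62 for MT-CO3 (0.48). MT-ATP8 was at -0.01 and turned above 0 under the other scalings except GC centring. The pair with an unadjusted p under 0.05 lay lower: MT-ND6 at -1.48 (0.70), with p = 0.00705 and q = 0.0780 in the authors' deposited table, and MT-ND3 at -0.81 (0.46), with p = 0.0127 and q = 0.116 there. MT-RNR1 was at 0.41 (0.49), and MT-RNR2 was at 0.14 (0.43), or -0.05 with GC centring.

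With decitabine the knockdown groups differed the other way. All 12 heavy-strand mRNAs were lower in siStau1 DAC than in siLuc DAC, from -0.95 to -0.41, with a median of -0.73 against -0.14 over all tested genes. The authors' deposited table called 1 of 15 members, where 0.904% of 17263 tested genes were called, 0.434% higher and 0.469% lower. It was MT-ND1, which fell by 0.95 (0.44) on the log2 scale with q = 0.0343 in the authors' deposited table, and 5 of 15 members had an unadjusted p under 0.05, where 6.95% of tested genes did. That call was lost at q under 0.01, where 0.197% of tested genes were called, and when the authors' p-values were adjusted within this comparison alone, where 0% of tested genes were called. Of 72 nuclear respiratory chain genes, 11 had an unadjusted p under 0.05 in the authors' Cuffdiff test. Their median implied error was 0.55, against 0.49 for the 15 members and 0.98 for all tested genes. MT-ND2, at -0.89 (0.45), had q = 0.0671 in the authors' deposited table. MT-ND4 was at -0.85 (0.49), MT-ND5 at -0.77 (0.44) and MT-CYB at -0.68 (0.44). MT-RNR1 and MT-RNR2 were at -0.50 (0.44) and -0.47 (0.49), and MT-ND6 at -0.33 (0.56).

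**Figure D3:**
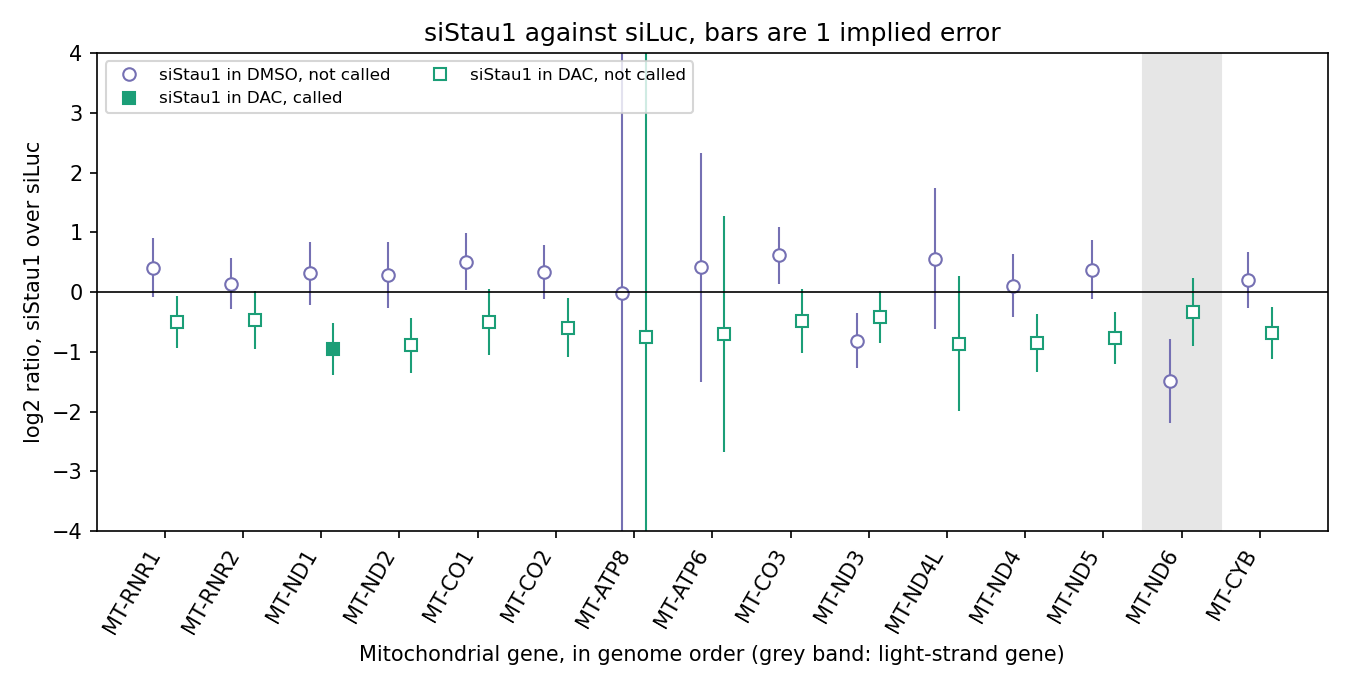
Log2 ratio of FPKM, siStau1 over siLuc, for each mitochondrial rRNA and mRNA in genome order, with DMSO (circles) and with DAC (squares), where bars are 1 implied error either way and the filled point (MT-ND1 with DAC) was called at q under 0.05. With DMSO most circles lie just above 0 while MT-ND3 (-0.81) and MT-ND6 (-1.48, grey band) lie below, with DAC all squares lie below 0, and the bars of MT-ATP8 run past the axis.

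Against siLuc DMSO, the siStau1 DAC group still held more of most members. The authors' deposited table called 9 of 15 higher and none lower, where 4.98% of 16909 tested genes were called, 4.02% higher and 0.964% lower. The heavy-strand median log2 ratio was 1.28, with MT-ND1 at 2.03 (0.49), while MT-ND3 was at 0.26 (0.45) and MT-ND6 at 0.22 (0.59).

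The light-strand mRNA and the heavy-strand mRNAs were set against each other within each comparison, where any scaling common to a group cancels. With DAC in siLuc cells MT-ND6 lay 1.42 below the heavy-strand median (difference of log2 ratios -1.42), under all 12 heavy-strand mRNAs. In siStau1 cells the same difference was 0.67, and 1 of 12, MT-ND1, lay above MT-ND6. The knockdown gave -1.81 with DMSO, again with all 12 above MT-ND6, and 0.40 with DAC, with none above it. Centring on nuclear genes of like GC content gave -1.16, 0.78, -2.02 and 0.29 in the same 4 comparisons. The rRNAs, which are heavy-strand genes, had a median within 0.25 of that of the heavy-strand mRNAs in all 4. Some ranks changed with GC centring. For DAC in siStau1 cells MT-ND6, at 2.11, then lay above the highest heavy-strand mRNA, at 1.82. For the knockdown with DAC, MT-CO3 (-0.50) and MT-CO1 (-0.52) then lay above MT-ND6 (-0.58). The implied error of MT-ND6 was 0.56 to 0.70, and with 1 light-strand mRNA and 1 value per group the difference between strands could not be tested.

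MT-ND3 was the lowest heavy-strand mRNA for DAC in siLuc cells and for the knockdown with DMSO. Its difference from the heavy-strand median was -1.29 and 0.05 for DAC in siLuc and siStau1 cells, and -1.14 and 0.32 for the knockdown with DMSO and DAC. Without MT-ND3 the MT-ND6 differences were -1.58, 0.72, -1.81 and 0.43, an alternative chosen after seeing the data.

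The decitabine ratio itself was smaller in siStau1 than in siLuc cells for 11 of 12 heavy-strand mRNAs. The median of that difference was -1.05, the lowest being -1.42 for MT-ND4L and the exception 0.40 for MT-ND3, against -0.02 over 15956 genes tested in both. For MT-RNR1 it was -0.91 and for MT-RNR2 -0.61. MT-ND6 had 1.15, a value that 5.11% of genes tested in both reached or passed. No test of these differences could be made from group values, and each group enters 3 of the 6 deposited comparisons, so the ratios are not independent of each other.

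Among the 12 heavy-strand mRNAs, those that were low without decitabine had the larger ratios. The Spearman correlation of the DAC ratio in siLuc cells with the level in siStau1 DMSO, a group outside that ratio, was -0.69, and that of the DAC ratio in siStau1 cells with the level in siLuc DMSO was -0.75. With transcript length it was 0.33 and 0.43, with GC content 0.25 and 0.15, and with position along the genome -0.06 and 0.05. These are descriptions over 12 genes that share libraries and a precursor.

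The nuclear genes for the same complexes were read against the same background shares of all tested genes. In siLuc cells, decitabine left 72 nuclear subunit genes with a median log2 ratio of -0.34, and the authors' deposited table called 5 higher (6.94%, against 8.71% of all tested genes) and 16 lower (22.2%, against 4.78%). Among complex I genes NDUFA5 fell from 51.8 to 10.8 FPKM, NDUFB6 from 45.3 to 9.67 and NDUFB1 from 199.6 to 50.1. UQCRB of complex III fell from 333 to 72.5 FPKM and COX7B of complex IV from 268 to 51.1. In complex V, ATP5F1C fell from 207 to 42.8 FPKM and ATP5PD from 621 to 133, while ATP5F1D rose from 59.5 to 238. Relative to nuclear genes of its GC bin, the log2 ratio of ATP5F1D was 0.80, below the uncentred value. Those of the genes named here as lower ran from -1.88 to -1.31 in place of -2.39 to -1.99. In siStau1 cells the median was 0.11, or -0.08 with GC centring. There 4 of 72 were called lower (5.56%, against 2.89% of all tested genes) and none higher in the authors' deposited table. By complex in siLuc cells, mitochondrial and nuclear medians were 2.38 and -0.25 for complex I, 2.13 (MT-CYB) and -0.51 for complex III, 1.56 and 0.07 for complex IV, and 1.48 and -0.79 for complex V. In siStau1 cells they were 1.42 and 0.08 for complex I, and 1.25 (MT-CYB) and 0.13 for complex III. There they were closer for complex IV, 0.48 and 0.31, and were 0.55 and -0.32 for complex V. The mitochondrial complex V medians rest on MT-ATP6 and MT-ATP8, neither called, with implied errors of 1.91 and 5.95 in siLuc cells. For the knockdown with DMSO, 1 of 72 nuclear subunits was called lower (1.39%, against 0.466% of all tested genes) and none higher. It was UQCRQ, which fell from 909 to 295 FPKM. With DAC, 2 of 72 were called higher (2.78%, against 0.434%) and none lower. They were COX7B, from 51.1 to 123 FPKM, and ATP5F1C, from 42.8 to 86.8. Their log2 ratios were 0.91 and 0.86 relative to their GC bins, in the comparison where the mitochondrial mRNAs were lower. Neither call was kept when the authors' p-values were adjusted within this comparison alone, where 0% of tested genes were called.

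**Figure D4:**
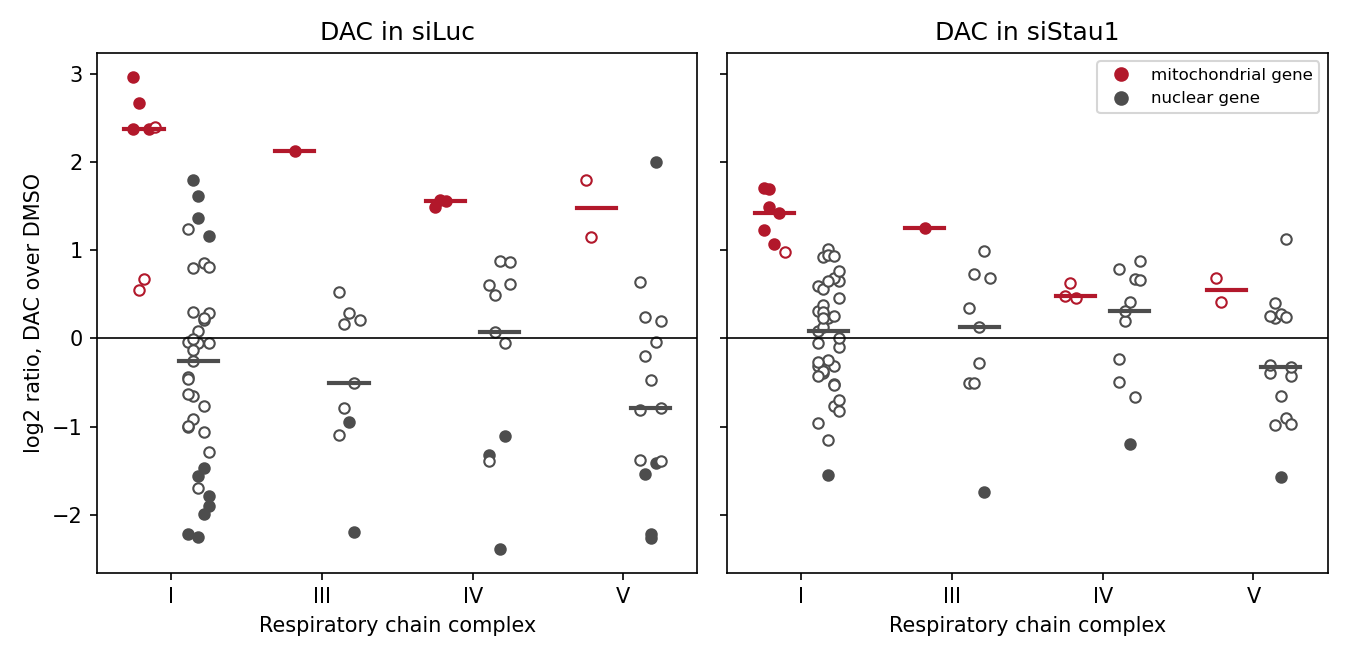
Log2 ratio of FPKM, DAC over DMSO, of mitochondrial (red) and nuclear (grey) genes of respiratory complexes I, III, IV and V in siLuc (left) and siStau1 (right) cells, 1 point per gene, filled where called at q under 0.05, with a short line at each median. Every red point lies above 0, while the nuclear genes spread to both sides of 0, with medians from -0.79 to 0.07 in siLuc cells and from -0.32 to 0.31 in siStau1 cells.

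Counts for the nuclear genes of mitochondrial DNA and RNA upkeep in siLuc cells stand against the same 8.71% of tested genes called higher and 4.78% lower with decitabine. Of 6 mitochondrial DNA replication genes, the authors' deposited table called none higher and 1 lower, SSBP1, the single-strand binding protein, from 431 to 171 FPKM. Of 9 transcription genes none was called higher and 2 lower. They were TFAM, which packages mitochondrial DNA and starts its transcription, from 35.6 to 11.3 FPKM (q = 0.0429), and MTERF3, from 30.7 to 8.19 FPKM (q = 0.00293), in the authors' deposited table. Relative to their GC bins the log2 ratios were -0.71 in place of -1.34 for SSBP1, -0.90 in place of -1.64 for TFAM and -1.31 in place of -1.90 for MTERF3. The median log2 ratio was -0.55 over the 6 replication genes, or -0.65 with GC centring. Over the 9 transcription genes it was -1.21, or -0.26 with GC centring. POLRMT, the mitochondrial RNA polymerase, stood at 18.1 and 46.4 FPKM, a log2 ratio of 1.35 that was not called (q = 0.0530 in the authors' deposited table) and was 0.15 relative to nuclear genes of its GC bin.

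Of 18 RNA processing and decay genes, 1 was called higher (5.56%) and 4 lower (22.2%) in the authors' deposited table. Over all 18 the median log2 ratio was -0.59, or -0.08 with GC centring. PNPT1, the ribonuclease that clears light-strand RNA, fell from 36.7 to 13.6 FPKM, a log2 ratio of -1.43 or -0.84 relative to its GC bin, with q = 0.0343 in the authors' deposited table. Its partner SUPV3L1 stood at 32.0 and 22.2 FPKM (q = 0.527 in the authors' deposited table). TRMT10C, a subunit of the enzyme that cuts tRNA 5' ends from the precursors, fell from 45.2 to 14.7 FPKM, and FASTKD1 from 11.8 to 3.94, with log2 ratios of -0.99 and -0.82 relative to their GC bins. LRPPRC, which binds and stabilises heavy-strand mRNAs, stood at 98.0 and 80.7 FPKM (q = 0.802 in the authors' deposited table). Of the 4 tested nuclear regulators of mitochondrial genes none was called.

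In siStau1 cells TFAM fell from 51.1 to 19.6 FPKM, MTERF3 from 33.9 to 13.3 and TRMT10C from 72.1 to 32.3 with decitabine, with log2 ratios of -0.86, -0.91 and -0.64 relative to their GC bins. PNPT1 stood at 45.0 and 22.2 FPKM with q = 0.227 in the authors' deposited table. POLRMT was at 15.6 and 26.1, SUPV3L1 at 36.4 and 26.2, and LRPPRC at 182 and 112 FPKM, with q of 0.638, 0.684 and 0.426 in the authors' deposited table. There, 2 of 9 transcription genes (22.2%) and 1 of 18 RNA processing and decay genes (5.56%) were called lower. None of either list was called higher. Of all tested genes 2.89% were called lower and 4.56% higher. The transcription list had a median log2 ratio of -0.84, or -0.25 with GC centring. The processing and decay list had -0.49, or -0.16 with GC centring. No replication gene or regulator was called in that comparison. The knockdown had no called gene in these 4 lists in either treatment. Of all tested genes only 0.799% were called for it with DMSO and 0.904% with DAC, so lists this short could hold none.

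Nuclear DNA holds old copies of mitochondrial genes, and reads can be split between a gene and a near-identical copy. Of 394 annotated copies, 305 were listed at 0 in every group and 10 reached 1 FPKM in any. MTATP6P1 on chromosome 1 (chr1:633696-634376) matched MT-ATP6 in all but 10 of 681 bases and stood at 11.9, 42.1, 14.1 and 26.3 FPKM, or 13.4, 13.6, 11.9 and 13.8% of MT-ATP6. MTCO2P12, 98.0% identical to MT-CO2, stood at 9.39, 24.4, 9.30 and 16.0 FPKM, or 0.667 to 0.850% of MT-CO2. MTCO1P12, 98.6% identical to MT-CO1, stood at 5.39, 18.0, 14.4 and 11.6 FPKM, or 0.742 to 1.39% of MT-CO1. None of these 3 copies was called in the 4 comparisons, where 13.5, 7.46, 0.799 and 0.904% of all tested genes were. For DAC in siLuc cells, all 7 copies at 1 FPKM or more in both groups were higher, with a median log2 ratio of 1.72. Their implied errors ran from 0.98 to 9.38. In siStau1 cells 6 of 7 were higher with DAC (median 0.78). For the knockdown 5 of 7 were higher with DMSO (0.56) and 6 of 7 lower with DAC (-0.61). How the authors' counting shared such reads is not given in the sources used here. MT-ATP6, its overlap partner MT-ATP8, MT-CO1 and MT-CO2 therefore carry that uncertainty as well.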

How the data were processed

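Total RNA of 8 libraries, 2 in each of 4 groups, was used, and 3 libraries of RNA bound by the J2 antibody were not used here. The submitters' processing notes name bcl2fastq 2.20, HISAT2 2.1.0, featureCounts, DESeq 1.36.0, Cuffdiff 2.2.1, Cuffnorm 2.2.1 and hg38, without their roles. Per the labels' protocols, libraries were stranded total RNA libraries after Ribo-zero Gold depletion. Per the file headers the deposited table is Cuffdiff output, and it holds 1 FPKM value for every gene in every group. The authors deposited a test score, a p-value and a q-value for each of 6 comparisons. Recomputation showed the q-value to be Benjamini-Hochberg adjusted over the 102180 tests of all 6, with a largest gap of 5.27e-07. A gene was called at q under 0.05. No column of per-library values is in this table, so library depth is unknown and no SD, interval or test of its own could be computed.

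Log2 ratios use a pseudocount of 0.1 FPKM. GC centring subtracts the median of nuclear protein-coding genes of at least 1 FPKM in the same of 20 transcript GC bins. All 58699 identifiers are in GENCODE 29, which gave strand, position, length and sequence. The plus strand of the reference was taken as heavy-strand genes. The calculations ran in Python 3.11.15 with pandas 2.3.3, numpy 2.4.6 and scipy 1.17.1 and were tested on simulated data. All members could be named; of each gene list at most 3 called genes with the largest ratio were named, plus PNPT1, SUPV3L1, POLRMT, TFAM, LRPPRC, STAU1 and the 3 highest nuclear copies. The members and lists were chosen with earlier results of these data known, so they are a description and no independent evidence. Alternatives were other pseudocounts, scalings, GC centring, q limits and subsets of mRNAs.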

Additional observations from a re-analysis of the deposited data

How the results depend on the processing

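Of 56 values recomputed under the alternatives, 52 stayed within the median implied error of the heavy-strand mRNAs (for counts, within 1.5 times) of the reported one, and none changed sign. Rescaling FPKM to the sum over all genes moved the heavy-strand median for DAC from 1.97 to 1.30 in siLuc cells and from 1.03 to 0.41 in siStau1 cells, since that sum itself differed between the groups. The single member called for siStau1 with DAC became 0 at q under 0.01 and 0 with adjustment within that comparison, and the 9 called for DAC in siStau1 cells became 6 at q under 0.01, without MT-ND6, MT-ND3 and MT-RNR1. Over all alternatives the heavy-strand median ran from 1.30 to 2.21 and from 0.41 to 1.33 for DAC in siLuc and siStau1 cells, from 0.32 to 0.55 for siStau1 with DMSO and from -0.86 to -0.46 with DAC. The MT-ND6 difference from that median ran from -1.58 to -1.16, from 0.54 to 0.78, from -2.02 to -1.75 and from 0.29 to 0.43 in the same order. No paired analysis was possible because the table has 1 value per group and none per library, and for the same reason no replicate could be left out. The strand comparison of tRNAs and its alternatives gave no value, since all 22 are listed at 0. Depth is unknown, so how firmly low values such as MT-ND6 in siStau1 DMSO are measured rests on the authors' test alone.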
